A study of Homo sapiens with 8 samples.

Results

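To examine which miRNAs change with gefitinib irrespective of luteolin, the 4 arrays of PC-3 cells that received gefitinib (gefitinib alone, or luteolin plus gefitinib) were compared with the 4 arrays of cells that did not (DMSO, or luteolin alone), with luteolin as a covariate. All 8 arrays of the series entered the comparison. PC-3 is an established line of hormone-insensitive human prostate cancer cells. Every group was exposed for 24 h and received DMSO, in which the drugs were dissolved, and each drug was given at 60 µM. Both arrays of a treatment are labelled as biological replicates of this 1 line, and the labels say no more of how the replicates were made, so the p-values measure the spread between these arrays. Total RNA was labelled with Cy3 and hybridized to 1-color miRNA arrays with 1887 human miRNAs, 1 array per sample.

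Gefitinib blocks the kinase activity of the epidermal growth factor receptor (EGFR), and luteolin is a plant flavonoid. A miRNA is cut from a hairpin precursor, and one arm of the hairpin, the guide, is usually kept in the Argonaute complex, whereas the passenger arm is mostly degraded. The guide pairs with mRNAs chiefly through its seed, here bases 2 to 8 from the 5′ end, and represses them. In epithelial cells miR-200 family members and miR-21 are among the well known miRNAs, and miR-7 is known for repressing EGFR mRNA.

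The mature sequences of the miRNAs on which the comparison turns are given first, from RefSeq (GRCh38.p14), 5′ to 3′ with the seed in capitals. The first 4 are the largest rise among miRNAs detected on all 8 arrays together with the miRNA whose last bases it shares, and a pair that differs by 1 base:

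miR-630: aGUAUUCUguaccagggaaggu

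miR-5703: aGGAGAAGucgggaaggu

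miR-642a-3p: aGACACAUuuggagagggaacc

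miR-642b-3p: aGACACAUuuggagagggaccc

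Further rises among miRNAs detected on all 8 arrays, shown because several are rich in G and C and 1 shares its seed with a family that did not pass the test:

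miR-188-5p: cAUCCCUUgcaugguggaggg

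miR-4746-3p: aGCGGUGCuccugcgggccga

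miR-4443: uUGGAGGCguggguuuu

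miR-4687-3p: uGGCUGUUggagggggcaggc

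miR-4516: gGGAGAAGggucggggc

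miR-4465: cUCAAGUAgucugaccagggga

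The miRNA linked to EGFR and the other largest falls among miRNAs detected on all 8 arrays with no overlap between the sides:

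miR-7-5p: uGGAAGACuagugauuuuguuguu

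miR-431-3p: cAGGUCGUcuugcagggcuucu

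miR-4482-3p: uUUCUAUUucucaguggggcuc

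miR-149-5p: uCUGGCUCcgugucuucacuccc

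Arms listed as passenger arms that were called while the opposite arm did not pass the test:

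miR-629-3p: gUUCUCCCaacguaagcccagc

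miR-769-3p: cUGGGAUCuccggggucuugguu

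let-7a-3p: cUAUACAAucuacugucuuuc

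miR-100-3p: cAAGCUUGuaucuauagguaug

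miR-29b-1-5p: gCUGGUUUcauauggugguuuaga

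RefSeq entries were found for 395 of the 480 miRNAs tested and for 41 of the 50 that changed, and miR-3195, miR-487b, miR-3610, miR-3667-5p, miR-5189, miR-150-3p, miR-3960, miR-939-5p and miR-4496 had none in the table used.

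The scanner software detected between 395 and 481 miRNAs per array on the gefitinib side and between 407 and 479 on the side without it. Of 15 markers of blood, muscle, liver, neuronal, stromal and endothelial cells, 14 were detected on no array, and miR-142-3p, a marker of blood cells, was detected on 1 array. Of the epithelial markers, miR-200a-3p, miR-200b-3p and miR-429 were detected on all 8 arrays and miR-205-5p on 6, while miR-200c-3p and miR-141-3p were detected on 0. Replicates differed in spread between the treatments. Over the 365 miRNAs detected on all 8 arrays, the SD of the log2 difference between the 2 replicates was 0.206 for gefitinib alone, 0.379 for luteolin plus gefitinib, 0.487 for DMSO and 0.658 for luteolin. The replicate differences of DMSO and luteolin ran together (r = 0.91 across these 365 miRNAs, which are not independent replicates), those of luteolin plus gefitinib less so (r = 0.41 with DMSO and 0.46 with luteolin), and those of gefitinib alone not (r = -0.13 with DMSO). All arrays lay on 1 slide, where each treatment filled 1 slide column, so the column and the treatment cannot be told apart. The replicate number likewise coincided with the slide row, so that differences shared between replicates and those between rows cannot be told apart.

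Gefitinib changed 50 of the 480 miRNAs tested (10.4%), of which 29 were higher (6.04%) and 21 lower (4.38%) in cells that received it. Differences are given as log2 of the scaled signal with gefitinib over that without it, and a miRNA was called at an adjusted p under 0.05 (limma, Benjamini-Hochberg over the 480 miRNAs, two-sided). Of the 50 called miRNAs, 38 were detected on all 8 arrays, 20 of them higher and 18 lower. The largest differences were at low signal, near the edge of detection. A change of at least 2-fold was seen in 16 of the rises and 7 of the falls, of which 7 rises and 4 falls were detected on all 8 arrays, and the size of the others depends on the floor set for undetected values. All 4 gefitinib arrays lay above the other 4 for 43 of the 480 miRNAs (8.96%) and below them for 39 (8.12%), and 44 of the 50 called miRNAs showed no overlap. The median half-width of the 95% interval of a difference was 0.37 for miRNAs detected on all arrays. RNA was taken from whole cultures, so a lower level in each cell and fewer cells with the miRNA cannot be told apart. In contrast, 6 miRNAs (1.25%) were called for luteolin in the same fit.

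**Figure D1:**
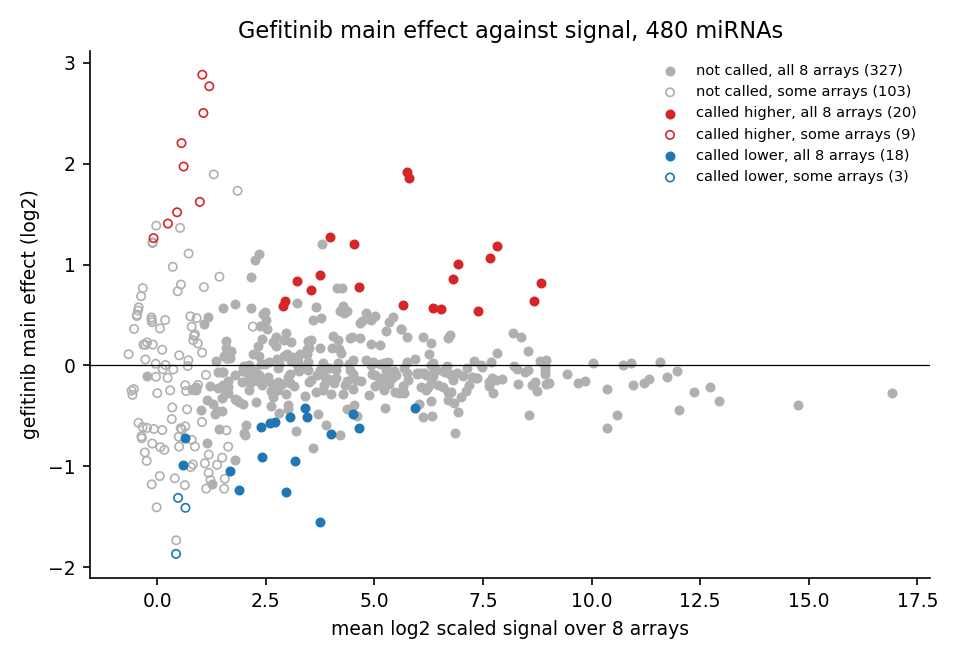
The gefitinib main effect (log2, vertical) of each of the 480 miRNAs tested against its mean log2 scaled signal over the 8 arrays (horizontal). Filled points were detected on all 8 arrays and open points on some, red marks the 29 higher and blue the 21 lower calls, and the largest differences are open points at low signal.

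These counts rest on the treatment with the closest replicates. The labels call both arrays of gefitinib alone biological replicates, and whether these were separate cultures or 1 RNA on both arrays is not given in the sources used here. Without either array of gefitinib alone, 2 (without replicate 1) or 1 (without replicate 2) miRNAs were called, and 1 was called when both arrays were averaged and counted as 1 sample. The count was 8 without DMSO replicate 1, 14 without DMSO replicate 2, 16 without luteolin replicate 2 and 33 without replicate 1 of luteolin plus gefitinib. The split between rises and falls depended on the scaling: 58% of the calls were higher in the main analysis, against 71.7% after quantile normalization, 75% without scaling, 87.0% when scaled to spike-in probes and 92.4% when scaled to small-RNA control probes. The median difference over the 480 miRNAs was -0.09 in the main analysis, 0.16 with the spike-in probes, 0.26 with the small-RNA control probes, and 0.68 with the 75th percentile over all miRNAs, under which 0 were called. Differences are therefore relative to the bulk of the detected miRNAs, and the data do not fix a change that all miRNAs share.

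The largest rise among miRNAs detected on all arrays was that of miR-630, which lies within the ARIH1 gene and has been studied in the response of cancer cells to DNA damage. Its scaled signal was 32.0 and 18.6 in DMSO-treated cells, 40.2 and 24.8 with luteolin, 112 and 121 with gefitinib, and 79.4 and 111 with luteolin plus gefitinib. The sides did not overlap, and the lowest gefitinib array was one that also received luteolin. The difference was 1.91 ± 0.27 (SE, 4 arrays a side, adjusted p = 0.013, limma), or 3.77-fold. miR-5703, within AGFG1, read 33.5 and 19.4 with DMSO, 42.2 and 25.8 with luteolin, 105 and 114 with gefitinib, and 81.9 and 125 with both drugs. Its order of arrays was nearly that of miR-630, and the difference was 1.86 ± 0.27 (adjusted p = 0.013, limma). The log2 ratio of these 2 miRNAs had an SD of 0.085 over the 8 arrays. As printed, both end in the same 8 bases, which 23 of 77815 pairs of tested miRNAs share, while their seeds differ. Whether the probes of one also bind the other was not tested. Both calls were lost in 5 of 27 alternatives, among them the removal of either array of gefitinib alone.

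miR-4746-3p, which overlaps CHAF1A and UBXN6, was about as stable. It read between 13.6 and 17.3 on the 4 arrays without gefitinib, 40.0 and 40.8 with gefitinib, and 28.0 and 32.6 with both drugs. The difference was 1.20 ± 0.16 (adjusted p = 0.013, limma). miR-4443 read 123 and 125 with DMSO, 164 and 150 with luteolin, 299.5 and 314 with gefitinib, and 244 and 315 with both drugs. Its difference was 1.06 ± 0.15 (adjusted p = 0.013, limma). miR-4687-3p, within STIM1, rose from between 74.2 and 106 to between 151 and 206, a difference of 1.00 ± 0.15 (adjusted p = 0.014, limma). For these 3 miRNAs each gefitinib array was above each array without it, and each difference was smaller in the presence of luteolin than in its absence, without an interaction that passed the test.

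The pair miR-642a-3p and miR-642b-3p, both within GIPR, rose together. They share the seed GACACAU and differ by A20C, counted from 1 at the 5′ end with the base of miR-642a-3p first. Whether the probes of one also bind the other was not tested. miR-642a-3p read 142 and 129 with DMSO, 204 and 140 with luteolin, 419 and 411 with gefitinib, and 273 and 295 with both drugs (difference 1.18 ± 0.22, adjusted p = 0.023, limma). miR-642b-3p was about an order of magnitude dimmer, between 16.3 and 23.0 without and between 26.0 and 40.1 with gefitinib (difference 0.78 ± 0.18, adjusted p = 0.035, limma). In both miRNAs the arrays of gefitinib alone were the highest, and those with both drugs lay between them and the rest. The call of miR-642a-3p was lost in 10 of 27 alternatives and that of miR-642b-3p in 14.

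miR-188-5p had the third largest rise of the miRNAs detected on all arrays, with 12.2 and 9.80 in DMSO-treated cells, 12.3 and 7.23 with luteolin, 36.8 and 34.1 with gefitinib, and 16.5 and 17.6 with both drugs (difference 1.27 ± 0.24, adjusted p = 0.024, limma). Again the rise was largest in cells with gefitinib alone. miR-188 lies in an intron cluster of CLCN5 with miR-500a, miR-501, miR-502, miR-532, miR-660 and miR-362. Of the 11 members tested, 2 were called higher (18.2%, against 6.04% of the 480) and 0 lower (4.38% of the 480), with a median difference of 0.04 against -0.09. The second call was miR-500a-5p, which read between 5.47 and 6.78 without gefitinib, at least 10.5 on both arrays with gefitinib alone, and 7.71 and 8.49 with both drugs (0.64 ± 0.13, adjusted p = 0.024, limma). The opposite arm miR-500a-3p differed by 0.04 (95% interval -0.28 to 0.36), and miR-532-5p by 0.03 (-0.35 to 0.41). Without passing the test, miR-501-5p differed by 0.56 (0.12 to 1.01) with no overlap between the sides. miR-502-3p differed by 0.41 (-0.17 to 0.98) and miR-501-3p by -0.35 (-0.73 to 0.04). The calls of miR-188-5p and miR-500a-5p were lost in 11 and 14 of 27 alternatives.

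The remaining rises of the 10 largest were miR-4651 within POR (0.90 ± 0.18), miR-3195 (0.86 ± 0.16) and miR-4745-5p within PTBP1 (0.83 ± 0.16). miR-3195 was the brightest of these, between 79.4 and 88.6 on the arrays without gefitinib, 188 and 185 with gefitinib alone, and 118 and 131 with both drugs. Calls of these 3 were lost in 11 or 12 of 27 alternatives. Among brighter miRNAs, miR-3960 rose from between 283 and 468 to between 559 and 706 (0.82 ± 0.15, adjusted p = 0.023, limma), and miR-4516, within PKD1, from between 274 and 415 to between 467 and 585 (0.64 ± 0.13, adjusted p = 0.024, limma). miR-3960 and miR-4516 were chosen for mention after their values were seen, and their calls were lost in 11 and 14 of 27 alternatives. miR-4516 has the seed of miR-5703, GGAGAAG. miR-4465 has the seed of miR-26a-5p and miR-26b-5p, UCAAGUA, and rose by 0.57 ± 0.12 (adjusted p = 0.027, limma), a call lost in 12 of 27 alternatives, while miR-26a-5p differed by -0.11 and miR-26b-5p by 0.04 without passing the test.

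**Figure D2:**
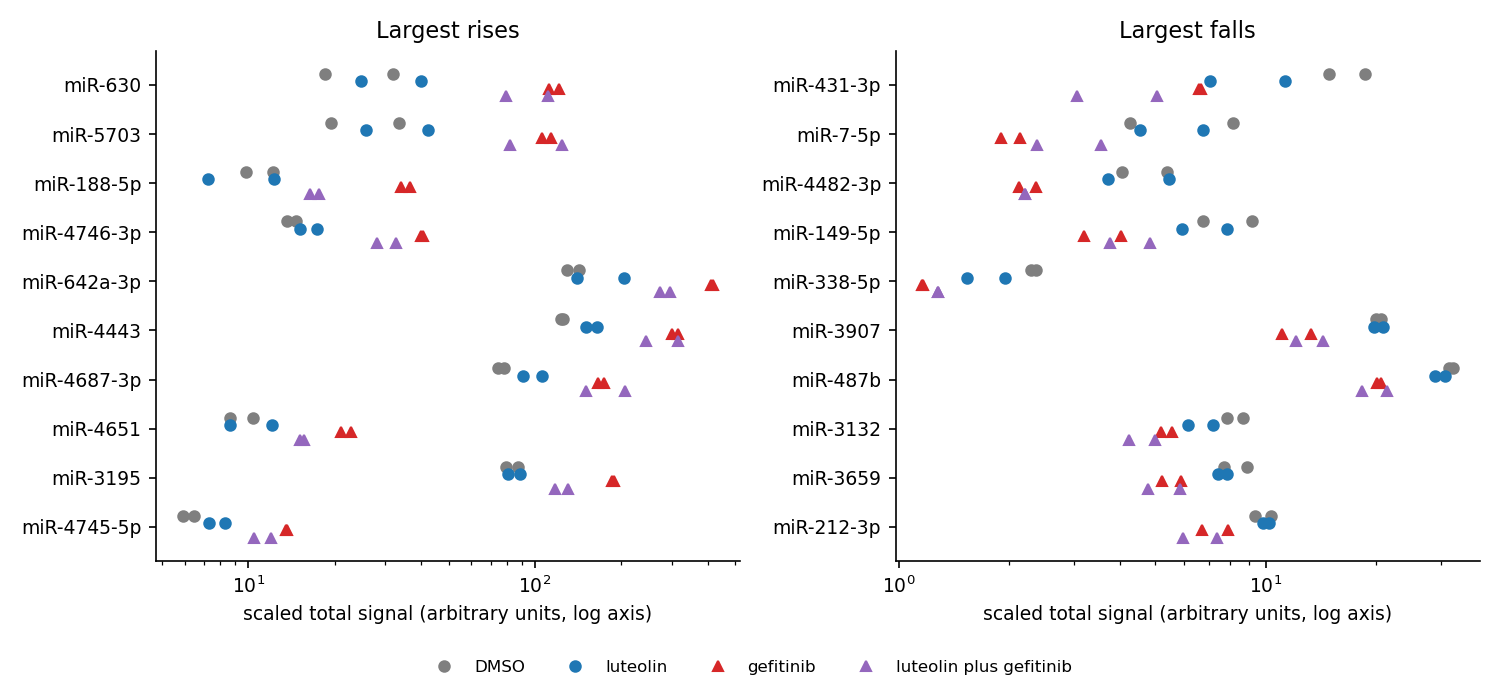
Scaled total signal (arbitrary units, log axis) of the 10 largest rises (left) and 10 largest falls (right) among called miRNAs detected on all 8 arrays and with no overlap between the sides. Each point is 1 array, circles are arrays without and triangles arrays with gefitinib. Red triangles, gefitinib alone, lie farther from the circles than purple triangles, luteolin plus gefitinib, for most of the rises.

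A group of dim miRNAs showed the largest differences, chosen for mention after their values were seen except for miR-629-3p, a called member of the passenger-arm list, and miR-769-3p. miR-629-3p, from a hairpin within TLE3, was detected on all 4 gefitinib arrays, at 6.50 and 6.57 with gefitinib and 4.43 and 5.11 with both drugs, and on 1 of the other 4, at 1.45 (luteolin replicate 1). The difference was 2.88 ± 0.33 (adjusted p = 0.013, limma). miR-3610, miR-3667-5p, miR-4689 and miR-3621 had the same pattern of detection, with signals between 1.22 and 7.29 on the 4 gefitinib arrays and between 0.985 and 2.66 on luteolin replicate 1. Their differences lay between 1.97 and 2.77. Since undetected values were set to the floor of 0.609, the size of these differences depends on that floor, and the floor makes the spread of the undetected arrays too small. These 5 entered the test through the gefitinib arrays, so their p-values do not support the direction. miR-769-3p was detected on all 4 gefitinib arrays, at 2.36 and 2.14 with gefitinib and 1.08 and 0.836 with both drugs, and on none of the others. It was at least 2.21-fold higher with gefitinib, set against the lowest signal detected on each of the other arrays. It too entered the test through the side where it is high, so its adjusted p of 0.025 (limma) gives no support, and its call was lost in 16 of 26 alternatives. Of the other partly detected calls, miR-3617-5p (1.62), miR-760 (1.52) and miR-5189 (1.41) were detected on all 4 gefitinib arrays and on 2, 3 and 1 of the others, and miR-4710 (-1.87) was detected on 1 gefitinib array and all 4 others. The sizes of these 4 also rest on the floor, and miR-5189 and miR-4710 entered the test through the side where they are high, so their p-values give no support.

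Among the falls, miR-7-5p, which is known to repress EGFR and has a gene within HNRNPK, was the second largest of those detected on all arrays with no overlap. It read 4.26 and 8.15 with DMSO, 4.53 and 6.75 with luteolin, 2.14 and 1.89 with gefitinib, and 2.39 and 3.55 with luteolin plus gefitinib. The highest array with gefitinib was below the lowest without it. The difference was -1.24 ± 0.28 (adjusted p = 0.033, limma), or 2.36-fold lower. The values were low, and the call was lost in 17 of 27 alternatives, with differences between -1.41 and -0.10. The other tested miRNAs of the list linked to EGFR, miR-128 and miR-146a-5p, differed by -0.18 (95% interval -0.54 to 0.17) and -0.04 (-0.36 to 0.27), so that 1 of 3 was called lower, against 4.38% of the 480.

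miR-431-3p, from the imprinted DLK1-DIO3 region, had the largest fall of this kind. It read 18.6 and 14.8 with DMSO, 11.3 and 7.03 with luteolin, 6.58 and 6.65 with gefitinib, and 5.05 and 3.05 with both drugs (difference -1.25 ± 0.22, adjusted p = 0.023, limma). The gap between the sides was narrow, since luteolin replicate 2 was close to the arrays of gefitinib alone. miR-487b, of the same region, was more even within each side, between 28.8 and 32.4 without and between 18.3 and 21.4 with gefitinib (-0.62 ± 0.10, adjusted p = 0.023, limma). miR-432-5p, a neighbor of miR-431, was detected on 2 arrays of each side and set to the floor on the others, so its difference of 0.00 does not show an unchanged level.

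miR-4482-3p read between 3.71 and 5.46 without and between 2.13 and 2.36 with gefitinib, and the fall was nearly equal without (-1.06) and with luteolin (-1.03). miR-149-5p, from an intron of GPC1, read between 5.92 and 9.17 without and between 3.19 and 4.83 with gefitinib (-0.90 ± 0.19, adjusted p = 0.027, limma). miR-338-5p, within AATK, was near the edge of detection, between 1.54 and 2.37 without and between 1.16 and 1.28 with gefitinib. The other named falls were miR-3907 (-0.68), miR-3132 (-0.57), miR-3659 (-0.56) and miR-212-3p (-0.51). miR-212-3p shares its seed, AACAGUC, with miR-132-3p of the neighboring hairpin, which differed by 0.45 (95% interval -0.56 to 1.47) and was detected on only some arrays. The calls of miR-338-5p, miR-149-5p, miR-212-3p, miR-3132 and miR-3659 were lost in 18, 17, 17, 15 and 14 of 27 alternatives, those of miR-431-3p, miR-3907 and miR-487b in 11 each and that of miR-4482-3p in 8, and the call of miR-212-3p was lost without any 1 of the 8 arrays. When the 75th percentile of all miRNAs on the array, which lies at the edge of detection, set the scale, 0 miRNAs were called and 8 of these 10 falls turned positive, all but miR-431-3p and miR-7-5p.

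Of the arms listed as passenger arms of well known hairpins, 31 of 85 were tested, 5 were called lower (16.1%, against 4.38% of the 480) and 2 higher (miR-629-3p and miR-769-3p, 6.45% against 6.04%). Several entered the test through the side where they were detected, so the list is also given for the 16 detected on all 8 arrays. Of these, 4 were called lower and 0 higher, against 18 lower and 20 higher of all 365 miRNAs detected on all arrays, and the median difference was -0.25 against -0.09. let-7a-3p read 4.26 and 4.28 with DMSO, 1.75 and 1.34 with luteolin, and 1.62 and 1.43 with gefitinib, and it was not detected on either array with both drugs (difference -1.41 ± 0.13, adjusted p = 0.0051, limma). miR-100-3p read 37.8 and 48.2 with DMSO, 15.2 and 10.0 with luteolin, 19.7 and 12.5 with gefitinib, and 4.06 and 3.76 with both drugs (-1.55 ± 0.21, adjusted p = 0.013, limma). In both, the arrays with either drug alone lay below those with DMSO and the arrays with both drugs were the lowest, so the sides of the comparison overlapped. For miR-100-3p the gefitinib difference was -1.44 without and -1.66 with luteolin, whereas for let-7a-3p the difference with luteolin runs into the floor. miR-29b-1-5p (-0.95 ± 0.19), miR-15b-3p (-0.99 ± 0.24) and miR-16-2-3p (-0.61 ± 0.12), the last of which lie together within SMC4, likewise overlapped. let-7a-3p, miR-100-3p and miR-29b-1-5p were also lower with luteolin in the same fit, by -1.40 (adjusted p = 0.0027, limma), -1.90 (adjusted p = 0.0066) and -1.44 (adjusted p = 0.017). The values of let-7a-3p at the floor make its standard error too small, and its call was lost without the luteolin covariate (adjusted p = 0.15, limma) and in the methods' t-test. The calls of miR-15b-3p, miR-16-2-3p, miR-29b-1-5p and miR-100-3p were lost in 21, 17, 16 and 7 of 27 alternatives.

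The opposite arms of the 5 lower calls did not pass the test. let-7a-5p read between 2296 and 4139 without and between 2926 and 3493 with gefitinib, a difference of 0.04 (95% interval -0.49 to 0.56). The differences of miR-100-5p, miR-29b-3p, miR-15b-5p and miR-16-5p were -0.12, -0.23, -0.05 and -0.08. Opposite to the rise of miR-769-3p, miR-769-5p differed by -0.77 (95% interval -1.34 to -0.20) without passing the test. Its gefitinib arrays all lay below the others. miR-629-5p differed by -0.10 (-0.58 to 0.37), but its mean log2 signal of -0.23 was near the floor, where a change is hard to measure. To compare both arms of a hairpin within each array, where scaling cancels unless an arm is at the floor, the log2 ratio of the 5′ to the 3′ arm was tested for 63 hairpins, a test chosen after seeing the data. It was called for 6 of 63 (9.52%). Of the 6, let-7a, miR-629 and miR-769 have an arm that was undetected on some arrays, so the size of their shifts depends on the floor. The 3′ arms of miR-629 and miR-769 also entered the test through the gefitinib side, where they are high. The ratio calls of miR-629 and miR-769 therefore give no support. The other calls of the 6 were miR-100, where the 5′ arm gained over the 3′ arm by 1.44 ± 0.27 (adjusted p = 0.018, limma), miR-29b-1, where the ratio changed by -0.72 ± 0.16 (adjusted p = 0.030), and miR-501, by 0.91 ± 0.23 (adjusted p = 0.047), although neither arm of miR-501 passed the test by itself. When the test was restricted to the 36 hairpins with both arms detected on all 8 arrays, 7 were called (19.4%), which added miR-15b (0.94, adjusted p = 0.044, limma), miR-16-2 (0.53, adjusted p = 0.044), miR-30e (0.52, adjusted p = 0.044) and miR-500a (0.59, adjusted p = 0.044) to these 3. Over all 63 the adjusted p-values of these 4 were between 0.061 and 0.087. The count of 6 fell to 0 without gefitinib replicate 2, 2 without gefitinib replicate 1, 1 without DMSO replicate 1, 1 without luteolin plus gefitinib replicate 1 and 3 without its replicate 2, and rose to 12 without luteolin replicate 2. The probe of miR-29b-3p cannot tell apart the products of both its genes, and the same holds for other guides made from several loci.

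None of the tested members of the let-7, miR-15/16, miR-17, miR-200, miR-29, miR-30, miR-221 and miR-222, miR-23, miR-24 and miR-27, miR-181, miR-26 and p53-linked lists was called in either direction. The 9 let-7 members lay between -0.02 and 0.13, and the 12 members of the miR-17 family between -0.27 and -0.12. miR-21-5p read between 3401 and 4731 without and between 3608 and 4104 with gefitinib, a difference of -0.05 (95% interval -0.42 to 0.31). miR-34a-5p differed by -0.04 (-0.60 to 0.52). miR-503-5p, a member of the miR-15/16 family that lies beside miR-424, stood apart with -1.17 (-2.63 to 0.29, adjusted p = 0.30, limma), with -2.76 in the absence and 0.42 in the presence of luteolin. miR-205-5p (-0.97, 95% interval -2.96 to 1.02) and miR-215 (-0.53, -2.45 to 1.39) had wide intervals that allow large changes either way. By name alone, miRNAs numbered 3000 and above were called higher in 19 of 181 (10.5%) and lower in 7 (3.87%), and those numbered under 1000 higher in 9 (3.46%) and lower in 14 (5.38%) of 260, against 6.04% higher and 4.38% lower of the 480. On all 8 arrays 124 of the 181 and 212 of the 260 were detected, with median differences of 0.04 and -0.11, against -0.09 for all 365. The counts include partly detected calls. Of those, miR-3610, miR-3667-5p, miR-4689, miR-3621, miR-5189, miR-629-3p, miR-769-3p and miR-4710 entered the test through the side where they are high. The shares therefore give no support for a difference between these classes.

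**Figure D3:**
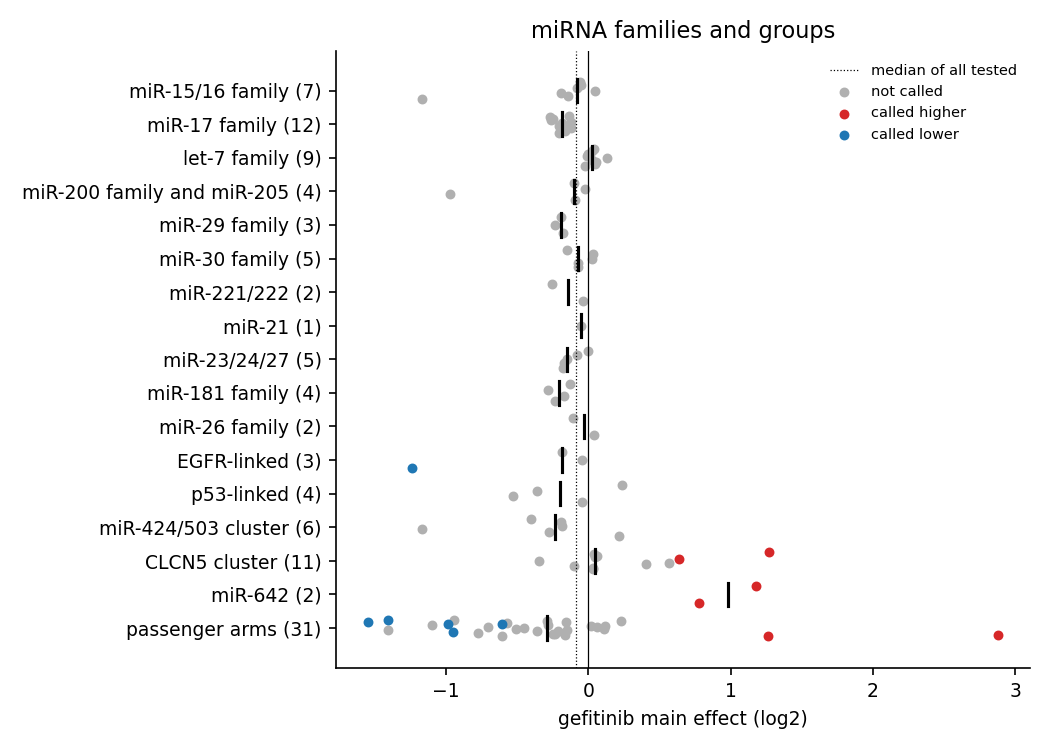
Gefitinib main effect (log2, horizontal) of each tested member of the miRNA lists (vertical, number tested in parentheses). Grey points were not called, red were higher and blue lower, thick bars are list medians and the dotted line is the median over the 480 tested. Calls are seen in the EGFR-linked, CLCN5, miR-642 and passenger-arm rows, and the other rows hold none.

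Gefitinib was compared without luteolin (gefitinib against DMSO) and with luteolin (both drugs against luteolin), 2 differences that share no array. Each used 2 arrays a side, and 58 miRNAs (12.1%) were called in the first and 9 (1.88%) in the second. Of the 50 miRNAs called for the main effect, 2 were called in both and 13 in neither. Across the 480 miRNAs the 2 differences correlated with r = 0.54 (Spearman's rho = 0.48), and 317 had the same sign. The replicate differences of DMSO and luteolin, the baselines here, ran together (r = 0.91), and how much of the agreement goes with this was not tested. The 50 called miRNAs had the same sign in both settings, which their selection on the mean of the 2 favors. Of these 50, 42 had the larger difference without luteolin, as did 307 of the 480 tested (64.0%). Of the 29 rises 20, and of the 21 falls 18, were detected on all 8 arrays, and the sizes of the others rest on the floor. With these included, the 29 rises had a median of 1.26 without and 0.75 with luteolin, and the 21 falls -0.76 and -0.59. Examples are miR-630 (2.26 and 1.57), miR-642a-3p (1.62 and 0.75) and miR-188-5p (1.69 and 0.85), whereas miR-3907 (-0.74 and -0.63) and miR-487b (-0.65 and -0.59) were closer to even.

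The interaction, that is the difference between the 2 settings, was called for 16 of the 480 miRNAs (3.33%, limma). It was called for 0 of the 21 miRNAs named by their size of change or their detection (miR-630 and miR-5703 among them), of which 6 had an unadjusted p under 0.05, so a smaller response in the presence of luteolin was not detectable for any of these 21 by itself. Among the 50 it was called for miR-4451 (interaction -1.10, adjusted p = 0.036, limma). This miRNA read between 2.17 and 2.26 without gefitinib, 1.23 and 1.35 with gefitinib, and was not detected with both drugs, so its fall with luteolin rests on the floor. The arrays set to the floor have no spread, which makes this p-value too small.

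**Figure D4:**
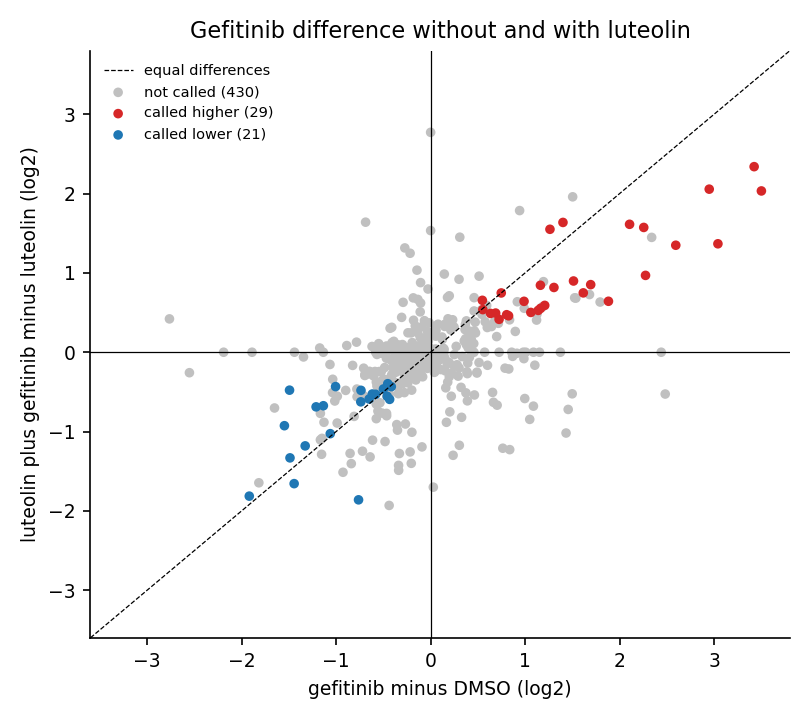
Gefitinib minus DMSO (log2, horizontal) against luteolin plus gefitinib minus luteolin (log2, vertical) for the 480 miRNAs tested, each point 1 miRNA. The dashed line marks equal differences, red the 29 rises and blue the 21 falls, and most red points lie below the line.

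The differences were also set against base composition. Among the 395 miRNAs with a sequence, the median share of G and C was 62.8% in the 22 rises, 52.9% in the 19 falls and 54.5% over all. Of 64 miRNAs with at least 70% G and C, 10 were called higher and 0 lower, against 5.57% higher and 4.81% lower of the 395, and their median difference was 0.28. The 203 miRNAs with 50% to under 70% had 9 rises and 11 falls (median -0.16), and the 128 with less had 3 rises and 8 falls (median -0.10). The first group includes miR-4746-3p, miR-4687-3p, miR-4651, miR-4745-5p and miR-4516, whereas miR-630, at 45.5% G and C, and miR-5703, at 55.6%, lie outside it. The medians of the group rich in G and C were 0.39 without and 0.25 with luteolin. The same groups also differed between replicates that received the same treatment: for replicate 2 minus replicate 1, the median of the miRNAs rich in G and C was -0.16 in DMSO-treated cells, -0.44 after luteolin, 0.05 after gefitinib and 0.15 after both drugs, and that of the miRNAs below 50% was 0.30, 0.31, 0.03 and 0.10. Over the 303 miRNAs with a sequence and detected on all arrays, the share of G and C and the difference correlated with r = 0.24 (Spearman's rho = 0.15). These values share probes and arrays, and how much of the differences goes with base composition was not tested.

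**Figure D5:**
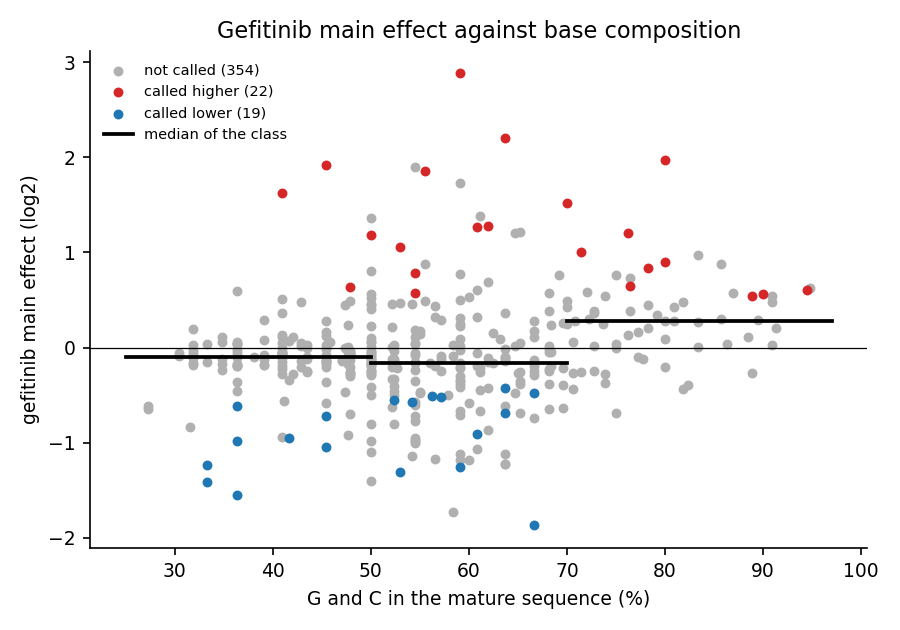
Gefitinib main effect (log2, vertical) against the share of G and C in the mature sequence (%, horizontal) for 395 tested miRNAs with a RefSeq sequence. Red points were called higher (22), blue lower (19), and black bars are the medians below 50%, from 50% to under 70%, and from 70%, the last of which lies above 0.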

How the data were processed

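RNA of PC-3 cells was measured on 8 arrays, 2 for each of 4 treatments, which were grouped by the treatment in the labels. Each array was extracted by the authors with Agilent Feature Extraction 10.7.3.1, and the deposited values are linear, background-subtracted signal intensity, with no scaling between arrays stated. The total intensity per miRNA, summed over probes, is set to 0.1 by the software where a miRNA is not detected. Of 56610 spots for 1887 miRNAs, 0 were saturated. The deposited series table holds the processed intensity of the same spots, within 0.5% for 100% of them. The number of arrays limits the precision. The study's methods describe ratios to DMSO and a t-test.

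Total signals were scaled to the 75th percentile over the 365 miRNAs detected on all arrays, floored at 0.609 (the lowest detected signal of an array, as a median of the 8) and log2-transformed. The 480 miRNAs that both arrays of some treatment detected were fitted with limma 3.58.1 (lmFit, eBayes) in R 4.3.3 with terms for luteolin and gefitinib, leaving 5 residual degrees of freedom and a prior of 1.96. The interaction and single settings came from a fit of the 4 group means. An exact permutation test of 4 arrays against 4 reaches at best a two-sided p of 0.029 and was not run per miRNA. Figures were drawn with matplotlib 3.10.9 and tables made with pandas 2.3.3.

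By rule the text names the 10 largest rises and 10 largest falls among calls detected on all 8 arrays with no overlap between the sides, called miRNAs detected on all arrays of one side and none of the other, and the pair that the study reported (miR-630 and miR-5703), together 21 miRNAs, and besides these the list members that were called. The comparison, members and lists were chosen with earlier results of these data known. For a bound, the brighter side was set against the lowest signal detected on each array of the dimmer side. Gene and host names come from RefSeq tables of GRCh38.p14, another build than that of the array design, without regard to strand. Alternatives changed the scaling, background correction, spot summary, filter, floor, model and test, and left out each array in turn.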

Additional observations from a re-analysis of the deposited data

Results flagged for a closer look

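For 5 miRNAs that the lists or calls include, the interaction was called (limma fit of 4 group means, adjusted over the 480 miRNAs tested). In each, some treatments read at or near the floor. miR-503-5p read 9.78 and 10.8 with DMSO and between 1.11 and 1.74 on the other 6 arrays, so that gefitinib minus DMSO was -2.76 and both drugs minus luteolin 0.42 (interaction 3.18, adjusted p = 0.0032). Its signals with luteolin were already low, so that a fall of that size could not have been measured there and the p-value gives no support for a difference between the settings. miR-222-5p (interaction 2.29, adjusted p = 0.017), let-7e-3p (1.89, adjusted p = 0.011) and miR-19b-1-5p (1.29, adjusted p = 0.022), all passenger arms, had their highest signals on both DMSO arrays, and let-7e-3p was detected on none of the other 6. let-7e-3p thus entered the test through the DMSO arrays, and its interaction follows from the floor on the others. For these 3 the values without DMSO are at or near the edge of detection, where a further fall cannot be measured, so their p-values give no support for a difference between the settings. miR-4451 had an interaction of the other sign (-1.10, adjusted p = 0.036), with -0.76 without and -1.86 with luteolin, and was not detected on the arrays with both drugs. Set to the floor, those arrays have no spread, which makes its p-value too small. With 2 arrays a treatment, single arrays that stand apart within a treatment were not tested.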

How the results depend on the processing

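The 50 calls were compared with 27 alternatives. Counts of calls were 80 when the 4 groups were fitted separately, 79 with scaling to small-RNA control probes (73 higher, 6 lower), 96 with normexp background correction, 31 with the methods' t-test after adjustment and 30 at its thresholds, 23 with spike-in scaling, 12 without scaling, 7 without the filter, 1 with both arrays of gefitinib alone counted as 1 sample, and 0 with the 75th percentile over all miRNAs, where 9 had an unadjusted p under 0.05. Why the counts differ was not tested. Without the filter 1887 miRNAs were tested, and a fit with fewer samples has fewer degrees of freedom. Leaving out each array gave between 1 and 64 calls. The other alternatives gave between 37 and 71. With the replicate number as a block the count was 59, 49 of them shared with the main analysis, and the labels do not say that a number marks a shared culture or day, although it coincides with the slide row. It ended the call of miR-15b-3p (-0.99, adjusted p = 0.064, limma) and of no other of the 41 miRNAs described. Under the 75th percentile over all miRNAs 9 falls turned positive: miR-149-5p 0.020, miR-338-5p 0.013, miR-4482-3p 0.027, miR-3907 0.14, miR-487b 0.20, miR-16-2-3p 0.21, miR-3132 0.25, miR-3659 0.27 and miR-212-3p 0.31. The number of named miRNAs with a called interaction was 0, but 1 with a floor of 1, and between 0 and 1 when each array was left out. The arm ratios, an analysis added after seeing the data, gave 6 calls, 5 with the replicate block, 2 with both arrays of gefitinib alone counted as 1 sample, 1 with log2 of the signal plus 16, and between 0 and 12 when each array was left out. Differences near the floor of 0.609 are limited by signal over background.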
